A study of Mus musculus with 18 samples.

Results

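Trimethylation of histone H3 lysine 9 (H3K9me3) and acetylation of lysine 27 (H3K27ac) were compared within 1 cell line, the Kap1 KO mouse embryonic fibroblasts (MEFs). The members are the 4241 autosomal H3K9me3 peaks and the 35318 autosomal H3K27ac peaks of these cells, out of 104821 peaks in the 5 lists of the series that were used. All peaks of both lists on the 19 autosomes were taken, on build mm9, and a distal interval of chromosome 10 (chr10:110000001-129993255) was kept apart because H3K9me3 peaks lay in it far more densely than elsewhere. It held 1180 H3K9me3 and 371 H3K27ac peaks, and the rest of the autosomes held 3061 and 34947. A site where both marks met was a place where peaks of the 2 lists shared at least 1 bp.

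H3K9me3 is a mark of silent chromatin. It is written at many repeats and imprinted loci by SETDB1, which KAP1 (also TRIM28) brings to sites bound by KRAB zinc finger proteins (KZFPs), and HP1 proteins bind it. H3K27ac is written by p300 and CBP at active promoters and enhancers. A single H3 tail can carry both groups, but the marks are known for occupying different parts of the genome. A place in both lists may therefore also reflect 2 populations of cells, 2 alleles, adjacent nucleosomes or reads from copies of a repeat. These possibilities cannot be told apart from peak lists of bulk cells.

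The cells were C57BL/6 MEFs of embryonic origin (C57BL/6J in the study's methods) in which floxed Kap1 had been excised (Kap1 KO), and their unexcised Kap1 loxP/loxP counterpart (WT) was used for comparison. In the study's methods for RNA of these cells, the Kap1 KO line is a stably growing clone kept for many passages in parallel with the WT line, so the Kap1 KO values describe 1 clone. Each mark in each genotype was represented by 1 library, with no replicates, and both Kap1 KO libraries were set against the same total input. Peak lists hold no read counts, so the depth behind each peak is unknown, and no test between genotypes was made.

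The lists differed in how strong and how wide their peaks were. Kap1 KO H3K9me3 peaks had a median score of 65.61, a median width of 488 bp and a total of 4.48 Mb, whereas H3K27ac peaks had a median score of 575.6, a median width of 1929 bp and a total of 82.3 Mb. The score is the peak caller's, on a scale of −10 log10 p, and 7710 H3K27ac peaks of all chromosomes shared 1 high value, 3100. It was used to rank peaks and as a limit in 1 alternative, and is otherwise printed as called. With the depth unknown, scores of different libraries are not measures of how much of a mark is present. The label of the cells was checked with fibroblast genes, and H3K27ac lay within 1 kb of a transcript start in 15 of 16 fibroblast genes, the exception being Postn at 1.58 kb, and in 2 of 14 genes of other cell types (Pecam1 and Tubb3). Over all 34653 annotated autosomal genes the share was 39.6%, and over the protein-coding ones 53.9%.

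H3K9me3 and H3K27ac rarely met. On the autosomes outside the distal interval, 22 of 3061 H3K9me3 peaks touched an H3K27ac peak, or 0.719% (95% exact Clopper-Pearson interval 0.451% to 1.09%, counting error only). When the H3K9me3 peaks were placed at random within their own chromosome 10000 times, 141 did so on average, with 95% of shuffles between 118 and 164 and none below 91. The observed count was 0.156-fold the shuffled one (two-sided permutation p = 0.0002, the lowest that 10000 shuffles allow). In distal chromosome 10, 10 of 1180 H3K9me3 peaks did so, or 0.847% (0.407% to 1.55%), against 132 shuffled (112 to 154), which is 0.0757-fold (permutation p = 0.0002). Peaks there lie in groups, which these shuffles break up. Rotating all peaks of the interval together, which keeps the groups, gave the same ratio with permutation p = 0.0008. These p-values compare positions within 1 pair of libraries and say nothing of the spread between cultures. The shared bases behaved alike. They came to 16161 bp against 67203 shuffled outside the interval (0.240-fold, permutation p = 0.0002) and to 10596 bp against 193612 inside it.

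**Figure D1:**
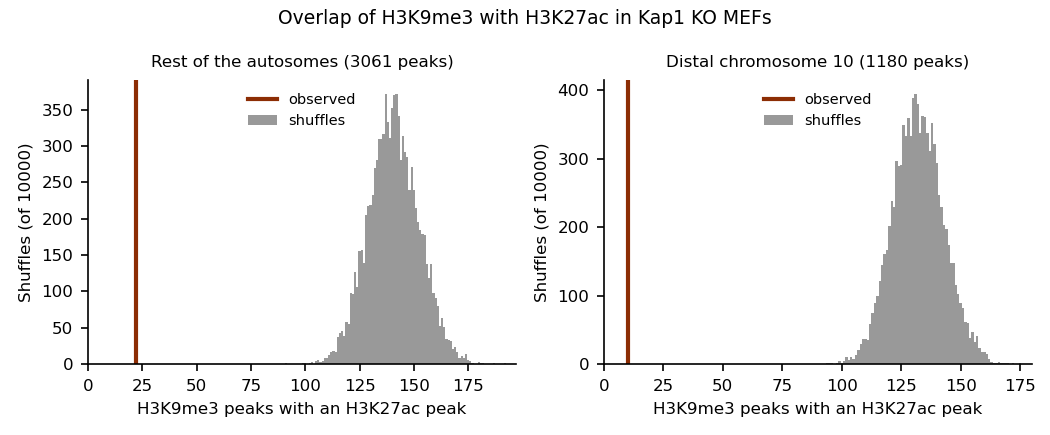
Number of H3K9me3 peaks that touch an H3K27ac peak in Kap1 KO MEFs (x axis) in each of 10000 shuffles within the chromosome (grey bars, y axis) and as observed (brown line). The observed 22 and 10 peaks lie left of every shuffle, whose lowest counts were 91 and 94.

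The 2 marks also stood apart at longer range. Outside distal chromosome 10, the median gap from an H3K9me3 peak to the nearest H3K27ac peak was 139573 bp, against 42463 bp shuffled (38822 to 46451), or 3.29-fold (permutation p = 0.0002). Of these peaks, 6.08% lay within 10 kb of H3K27ac against 24.7% shuffled, and 39.8% within 100 kb against 66.2%. Within 1 Mb the counts were 2922 observed and 2908 shuffled (permutation p = 0.256). In distal chromosome 10, where H3K27ac peaks are dense, the median gap was 65919 bp against 26220 bp (2.51-fold, permutation p = 0.0002), and 6.95% of H3K9me3 peaks lay within 10 kb of H3K27ac against 32.9% shuffled. With the peaks of the interval rotated together, the ratio of the median gap was 2.31 (permutation p = 0.003).

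Seen from H3K27ac, the difference depended on how H3K9me3 was shuffled. The median gap from an H3K27ac peak to the nearest H3K9me3 peak outside distal chromosome 10 was 871130 bp, or 2.80-fold the 311255 bp of the shuffles (permutation p = 0.0002). Shuffling spreads H3K9me3 peaks that in the cells lie in groups: when all peaks of a chromosome were instead rotated together, which keeps the groups, the ratio was 1.11 (permutation p = 0.0024), and it was 1.58 when peaks stayed within 5 Mb bins.

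H3K9me3 peaks lay in long stretches without H3K27ac. Neighbouring H3K27ac peaks outside distal chromosome 10 bounded 34928 stretches with a median of 18.9 kb, of which 960 held H3K9me3. Those with H3K9me3 had a median of 294 kb and those without it 17.9 kb. A long stretch has more room for peaks. The median base outside H3K27ac lay in a stretch of 248 kb, and the median H3K9me3 peak in one of 555 kb. The fullest stretch held 138 H3K9me3 peaks in 2513 kb, and the 10 fullest held 599 of the 2992 peaks placed between 2 H3K27ac peaks, or 20.0%.

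H3K9me3 in WT MEFs kept a different distance. Outside the distal interval 193 of 14009 WT H3K9me3 peaks touched a WT H3K27ac peak, or 1.38%, against 688 shuffled (0.281-fold), so that direct contact was scarce in both genotypes. The median gap, however, was 23798 bp in WT against 42637 bp shuffled, the opposite direction to the 139573 bp of Kap1 KO. In WT, 84.7% of the peaks had H3K27ac within 100 kb. At 50 kb to the left and right of the middle of an H3K9me3 peak, 5.63% and 5.83% of positions lay under H3K27ac in WT, against 3.39% of the whole interval. The Kap1 KO values were 1.11% and 0.981%, against 3.29%. In the middle itself the values were 0.885% and 0.719%. The WT lists thus had a narrow trough inside H3K27ac-rich surroundings, and the Kap1 KO lists a low level across the whole 100 kb. Each genotype had 1 library, and the difference between them was not tested.

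**Figure D2:**
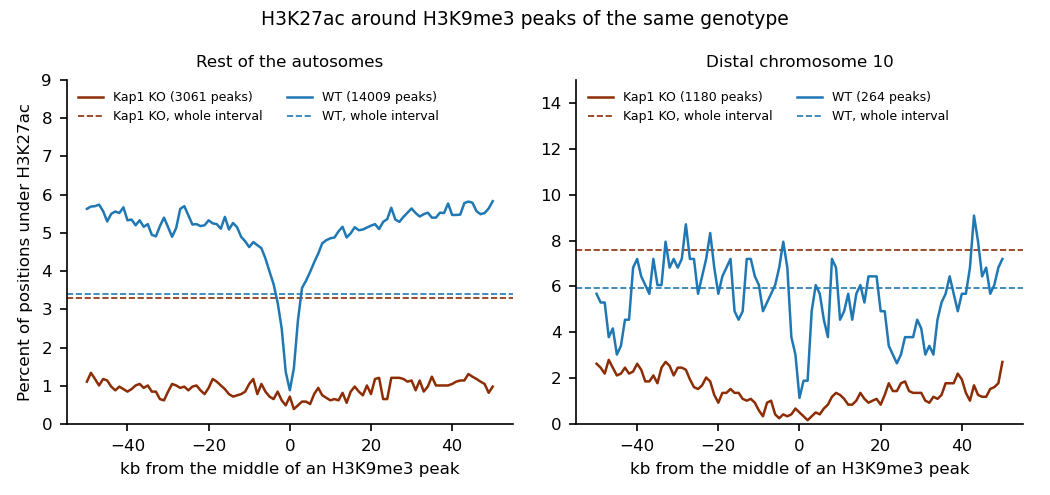
Share of positions under an H3K27ac peak (y axis, percent) by distance in kb from the middle of the H3K9me3 peaks of the same genotype (x axis), for Kap1 KO (brown) and WT (blue), with the share over the whole interval as broken lines. Outside distal chromosome 10 the WT curve falls from 5.63% at the left edge to 0.885% in the middle, whereas the Kap1 KO curve stays between 0.392% and 1.34%.

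**Figure D3:**
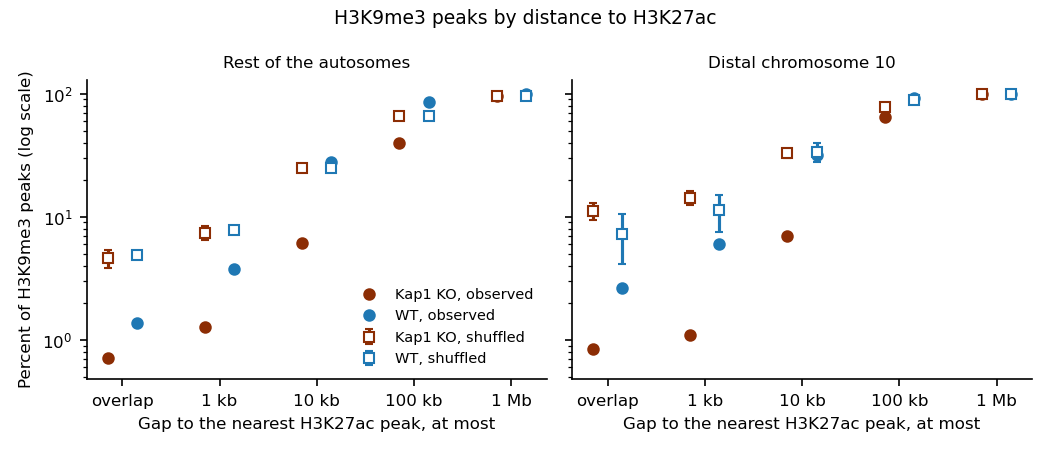
Percent of H3K9me3 peaks (y axis, log scale) with an H3K27ac peak of the same genotype touching or within the gap on the x axis, observed (filled circles) and in 10000 shuffles (open squares, mean with the central 95% of shuffles as bars). Kap1 KO points (brown) lie below their shuffles up to 100 kb in both panels, and WT points (blue) outside distal chromosome 10 lie below them up to 1 kb and above them from 10 kb.

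Several meeting sites lay on repeated sequence, as did some H3K9me3 peaks without H3K27ac. Outside distal chromosome 10, many of the shared intervals were tandem repeats, a property the choice of sites did not use. The measure, devised after these sequences had been read, is the highest share of bases in a peak equal to the base a fixed number of positions on, over periods of 1 to 100 bp. It reached 60% in 11 of 22 H3K9me3 peaks with H3K27ac, with an exact interval of 28.2% to 71.8%, and in 307 of 3039 without it, or 10.1% (9.05% to 11.2%). Peaks along 1 repeat at Rrp15 were counted separately among the 11, so that their interval is too narrow. In WT the shares were 10.4% (20 of 193; 6.45% to 15.6%) and 4.33% (598 of 13816). Reads of a repeat can be placed in several copies, or pile on copies that the assembly leaves out, and their part in these peaks was not tested. In the wider peaks of distal chromosome 10 the measure reached 60% in 0 of 10 (exact interval up to 30.8%) and 3 of 1170.

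Sequences of 3 minisatellites are shown because their units are long and differ. They are from the plus strand of mm9, within the interval shared by both marks, at chr1:188555161-188555315 in an intron of Rrp15, chr5:144175768-144175929 in an intron of Kdelr2 and chr7:7251637-7251791 in an intron of Clcn4-2. Capitals mark TGACTC, the core of the motif bound by AP-1 factors, or its reverse complement GAGTCA.
Rrp15: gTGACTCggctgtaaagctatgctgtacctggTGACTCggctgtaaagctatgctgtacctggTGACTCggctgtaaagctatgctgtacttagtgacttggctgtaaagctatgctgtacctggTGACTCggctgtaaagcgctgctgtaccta
Kdelr2: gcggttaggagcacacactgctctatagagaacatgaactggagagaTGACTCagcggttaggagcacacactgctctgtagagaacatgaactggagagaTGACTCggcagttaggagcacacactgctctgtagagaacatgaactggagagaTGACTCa
Clcn4-2: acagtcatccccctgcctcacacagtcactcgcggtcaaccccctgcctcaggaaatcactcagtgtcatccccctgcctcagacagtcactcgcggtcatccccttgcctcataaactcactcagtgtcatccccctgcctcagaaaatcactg

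Rrp15, a factor of ribosomal RNA processing, holds the strongest meeting site of the autosomes. There, 3 H3K9me3 peaks with scores of 93.85, 688.21 and 142.32 lay along a single H3K27ac peak of 3518 bp and score 379.91. The middle one, chr1:188554138-188556337, was 2200 bp long and lay 16867 bp from the transcript start. It repeated with a period of 31 bp, at which 93.5% of its bases matched, and held TGACTCG 60 times on both strands together. WT cells had H3K9me3 there with a score of 1765, the highest WT value at any meeting site, and H3K27ac with a score of 64.27.

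The Kdelr2 site, in an intron of an endoplasmic reticulum retention receptor gene, had a unit of 54 bp that matched at 96.5% of bases, with TGACTCA 8 times and TGACTCG once. Both marks were present there in both genotypes: H3K9me3 had a score of 58.35 in Kap1 KO and 275.0 in WT, and H3K27ac 588.97 and 280.9. The Clcn4-2 repeat lay 110 bp from the start of this chloride transporter gene and matched at 84.1% of bases with a period of 62 bp. It held neither motif. It was a 175 bp H3K9me3 peak of score 54.38 inside an H3K27ac peak at the score ceiling, and WT cells had H3K27ac alone there.

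Over all 32 shared intervals, TGACTCA occurred 14 times in 26757 bp, or 0.523 per kb, against 0.161 per kb of all Kap1 KO H3K9me3 peaks and 0.347 per kb of all H3K27ac peaks. Of the 14 matches, 8 lay in the 541 bp of the Kdelr2 repeat, so this density rests largely on 1 site. TGACTCG occurred 84 times, or 3.14 per kb, against 0.0453 and 0.0418, nearly all of them at Rrp15. TGACTCA lay in 18.8% of the shared intervals, in 13.4% of H3K9me3 peaks and in 52.7% of the longer H3K27ac peaks. A match of letters is not a bound site, and the motifs were chosen after the Rrp15 and Kdelr2 sequences had been read.

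A hexamer, GGCAGA, made up 3 further sites and a pentamer, CCATT, 1. They are shown as 60 bp from the middle of the shared interval, plus strand of mm9, with capitals for the whole unit: chr5:38414410-38414469 between genes near Stx18, chr10:6291016-6291075 in an intron of Mthfd1l, chr4:63263339-63263398 in an intron of the noncoding gene Gm11213, and chr17:4626321-4626380 between genes.
Stx18: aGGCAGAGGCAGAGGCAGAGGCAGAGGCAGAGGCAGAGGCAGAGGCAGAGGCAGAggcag
Mthfd1l: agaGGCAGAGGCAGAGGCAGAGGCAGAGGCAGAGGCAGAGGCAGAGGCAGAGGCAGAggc
Gm11213: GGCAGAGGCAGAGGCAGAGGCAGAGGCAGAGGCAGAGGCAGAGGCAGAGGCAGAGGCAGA
chr17 site: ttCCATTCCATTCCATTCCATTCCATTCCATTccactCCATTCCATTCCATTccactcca

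The 3 hexamer sites were much alike in both marks. Their Kap1 KO H3K9me3 scores were 68.41 at Stx18 (a syntaxin of the endoplasmic reticulum), 65.83 at Mthfd1l (an enzyme of mitochondrial folate metabolism) and 82.26 at Gm11213. Their H3K27ac scores were 108.36, 55.55 and 89.02. In WT all 3 had H3K9me3, with scores of 319.6, 283.2 and 249.8, and only Stx18 had H3K27ac. A run of 5 GGCAGA units on either strand lay in 8 Kap1 KO H3K9me3 peaks: 3 of the 32 with H3K27ac (9.38%) and 5 of the 4209 without it (0.119%). The unit was read from these same 3 sites, so that this contrast follows from how the unit was chosen. Such a run lay in 0.286% of Kap1 KO H3K27ac peaks. Of 14273 WT H3K9me3 peaks 165 held such a run, or 1.16%, and of the 200 WT peaks with WT H3K27ac 12 did, or 6.00%. Of these 165, 27 lay under Kap1 KO H3K27ac, 4 under Kap1 KO H3K9me3 (3 under both) and 137 under neither.

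The chr17 site, 51344 bp from the nearest annotated start and 367656 bp from the nearest coding one (Arid1b), had the third-highest H3K9me3 score among meeting sites outside distal chromosome 10, 208.54, and the lowest H3K27ac score, 55.40. The peaks covered almost the same bases (all 652 bp of H3K9me3 and 94.9% of H3K27ac). In Hepa 1.6 cells, a mouse hepatoma line, a KAP1 peak lay over it, as over 4 other meeting sites. Outside distal chromosome 10, KAP1 lay over 5 of the 20 H3K27ac peaks with H3K9me3 (exact interval 8.66% to 49.1%). Of the 34927 without it, 13.9% had KAP1, a share within that interval. Among H3K9me3 peaks the counts were 5 of 22 with H3K27ac and 62 of 3039 without it, a contrast partly set by the choice of sites. In distal chromosome 10, KAP1 lay over 0 of the 10 meeting H3K9me3 peaks (exact interval up to 30.8%). It lay over 1.11% of the 1170 others there, a share within that interval. WT cells had H3K9me3 at the chr17 site (170.5) and no H3K27ac. The remaining repeats were a site on chromosome 3 with a match of 64.9% and one in an intron of Dscam, a neuronal adhesion gene, with 93.5%.

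Meeting sites also lay at gene starts. Of the 22 sites outside distal chromosome 10, 9 had a transcript start within 1 kb, 7 more lay in a gene and 6 between genes. A start lay within 1 kb of 40.9% of H3K9me3 peaks with H3K27ac (exact interval 20.7% to 63.6%) and of 7.96% without it (7.03% to 8.98%). H3K27ac itself prefers starts, so that this difference is partly set by the choice of sites. Among all H3K27ac peaks without H3K9me3 the share was 34.3%.

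Rrs1, a regulator of ribosome assembly, had both marks 24 bp from its start at chr1:9535513-9536079. Its H3K9me3 peak (score 120.19, 567 bp) lay within an H3K27ac peak of 4662 bp at the ceiling, and WT cells had the H3K27ac peak alone. Foxm1, a forkhead factor of mitotic genes, had H3K9me3 of score 83.21 in an intron, 484 bp from an annotated transcript start. It again lay inside H3K27ac at the ceiling, and there both marks were also called in WT (313.0 and 3100). At both genes H3K9me3 was a narrow call within a broad, strong H3K27ac peak.

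The Sp100 family, which encodes interferon-induced nuclear body proteins, lies in a region of chromosome 1 known for repeated copies. Between 85 and 90 Mb of that chromosome there were 124 Kap1 KO H3K9me3 peaks, 3 of which met H3K27ac. Over all H3K9me3 peaks outside distal chromosome 10 the share was 0.719%. The window holds sites picked for their overlap, so its count is partly set by that choice and was not tested. At Sp140 and Sp110 an H3K9me3 peak of 1862 bp and score 349.89, the second-highest among meeting sites, shared 1820 bp with an H3K27ac peak of 1971 bp and score 266.34, and neither mark was called in WT. An H3K9me3 peak of 14017 bp over Sp110 ended 82 bp before that H3K27ac peak. At Sp100, H3K9me3 (69.16) and H3K27ac (391.15) shared 531 bp and WT had only H3K27ac (69.01). At the noncoding genes Gm16025 and Gm2619 942 bp were shared (68.90 and 251.09), and neither mark was called in WT.

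The longest shared interval, 3855 bp, lay 768 bp from the start of the noncoding gene 2610005L07Rik, at chr8:20021181-20025035. Its H3K9me3 peak (153.15) lay at the end of an H3K27ac peak of 15389 bp (831.66), and neither was called in WT. A further H3K9me3 peak of 13020 bp and score 515.31 followed that H3K27ac peak at a gap of 54 bp. Another of 7020 bp and score 549.31, in the same gene by the annotation, stood 34 bp from a different H3K27ac peak.

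Fcgr3, which encodes an Fc receptor of immune cells, had the lowest H3K9me3 score of all meeting sites, 50.14, and H3K27ac of 67.37 within 190 bp of its start. In WT this place had H3K9me3 of score 563.0 and no H3K27ac, and a KAP1 peak lay there in Hepa 1.6 cells. It is the one meeting site at a coding gene start that had only H3K9me3 in WT. Its sequence is shown because it is rich in CpG, marked in capitals, unlike the repeats. It is the plus strand of mm9 at chr1:172994617-172994736, with 65.5% G and C over the shared interval and a CpG ratio (observed over that predicted from base composition) of 0.746.
Fcgr3: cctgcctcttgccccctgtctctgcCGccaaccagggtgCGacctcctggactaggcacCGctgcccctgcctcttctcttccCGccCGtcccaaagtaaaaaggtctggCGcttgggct

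Gm5465 and Rrs1 had the highest CpG ratios, 0.971 and 0.940. Over the 22 sites outside distal chromosome 10 the ratio ranged from 0, at 4 repeats, to 0.971, with a median of 0.221. The other sites there were at Sall1, 22491 bp from the start of this zinc finger gene, with H3K27ac alone in WT (246.7), and nearest to 2 small nuclear RNA genes, U1 on chromosome 3 and U7 on chromosome 8. The U1 site, 9637 bp from that gene, had the highest H3K27ac score below the ceiling, 2779.20, with H3K9me3 at 63.64, and WT had H3K9me3 (277.7) without H3K27ac.

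**Figure D4:**
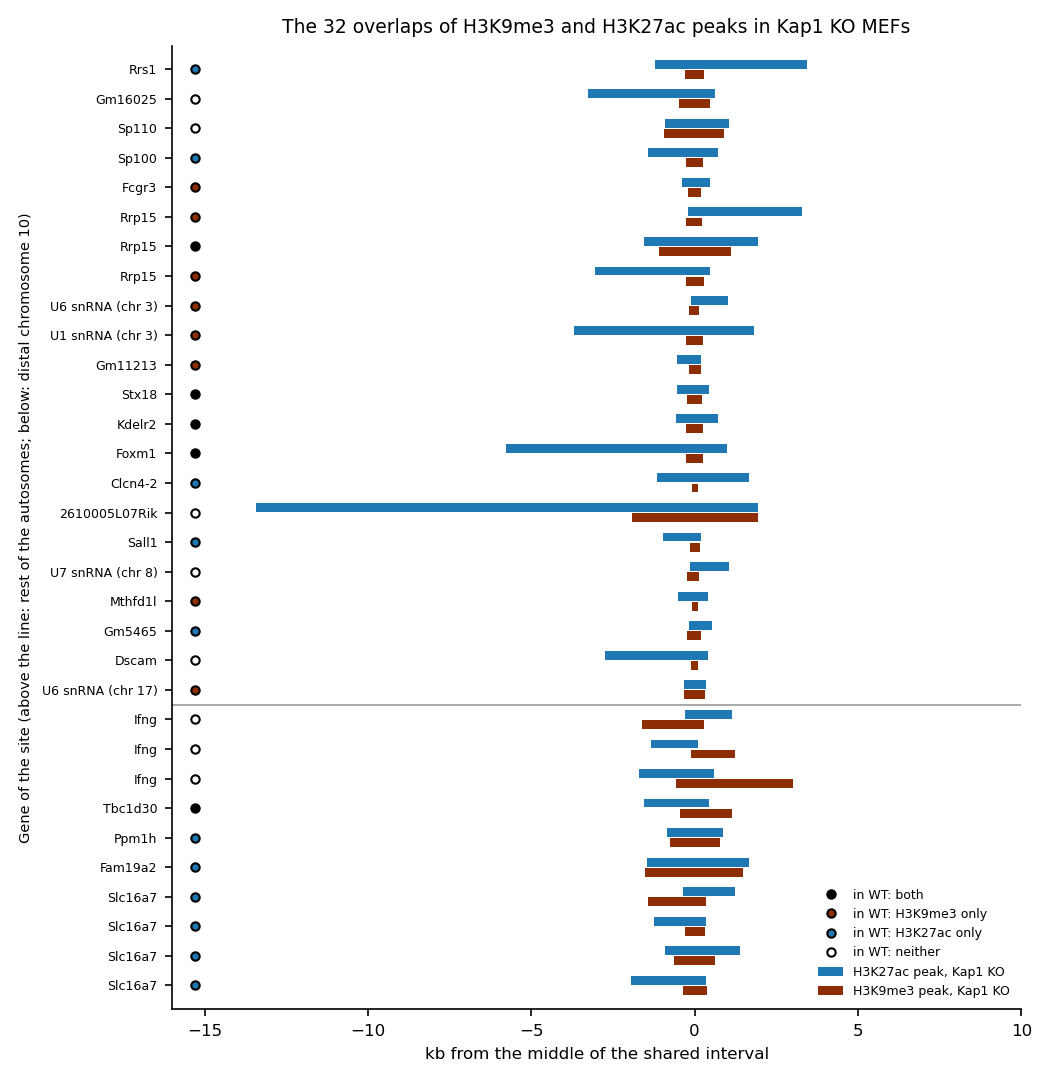
The 32 overlaps in Kap1 KO MEFs, one row each by the gene of the site, with the H3K27ac peak (blue bar) and the H3K9me3 peak (brown bar) drawn to scale in kb from the middle of their shared interval (x axis), and dots for which marks WT cells had there. Above the grey line 17 of 22 H3K9me3 peaks lie wholly inside the H3K27ac peak, and below it 3 of 10.

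In distal chromosome 10, 7 of 10 H3K9me3 peaks extended past an edge of their H3K27ac peak, against 5 of 22 elsewhere. At 2 of the 7 the H3K9me3 peak still lay almost wholly inside. These had 98.7% of the bases inside at Fam19a2, and 709 of 746 bp at a site between genes nearest to Slc16a7. The 10 peaks met 7 H3K27ac peaks, whose scores had a median of 127.1, against 781.2 for the 364 H3K27ac peaks of the interval that met none. None of the 7 was at the ceiling (exact interval up to 41.0%), which 34.3% of the 364 reached. Outside the interval the medians were 258.7 for 20 H3K27ac peaks and 579.5 for 34927, but the quartiles overlapped widely (88.27 to 915.1 and 156.9 to 2639), and the ceiling was reached by 3 of the 20 (exact interval 3.21% to 37.9%), and by 21.3% of the others. These are descriptions of peaks of 1 library.

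Slc16a7, the gene of the lactate and pyruvate transporter MCT2, was the gene assigned to 4 of the 10. A pair lay in its intron 10482 and 9644 bp from the start, on 1 H3K27ac peak of score 63.59. The other pair lay between genes, with Slc16a7 as the nearest start at 178989 and 180306 bp, on an H3K27ac peak of score 103.13. WT cells had H3K27ac alone at both places, with scores of 898.2 and 571.1, and WT H3K9me3 was called at neither. The 1 Mb step that holds them had the most H3K9me3 of the whole interval: 255 peaks covered 46.1% of its bases, and the only 2 H3K27ac peaks in it were these.

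Fam19a2, a gene of a secreted chemokine-like protein, had the longest shared interval of distal chromosome 10, 2939 bp in an intron at chr10:122971826-122974764. H3K9me3 (187.02) and H3K27ac (476.72) covered almost the same bases, 98.7% and 93.6% of each peak, and WT cells had H3K27ac alone (636.3). A stretch of its middle is shown for contrast with the repeats, since no tandem unit was found in it (29.8% match), and its 1 CpG is in capitals. It is the plus strand of mm9 at chr10:122973235-122973354.
Fam19a2: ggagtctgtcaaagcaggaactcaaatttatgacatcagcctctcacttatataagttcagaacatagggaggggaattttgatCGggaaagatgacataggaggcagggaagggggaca

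Of the others in the interval, Ppm1h, a phosphatase gene, had both marks over 1531 bp of an intron with H3K27ac alone in WT (52.31). Tbc1d30, a GTPase-activating protein gene, had them 477 bp from its start (178.38 and 239.86), and it was the 1 site of the interval with both marks in WT (63.14 and 93.03). The 3 sites nearest to Ifng lay between genes, over 128 kb from it. Their H3K9me3 scores were 114.05, 78.82 and 224.58, the last being the highest of the 10, and neither mark was called there in WT.

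The WT marks at the meeting places were counted in the 2 parts of the genome, and the difference between the parts was not tested. Outside distal chromosome 10, WT cells had H3K9me3 alone at 8 of 22 places, H3K27ac alone at 5, both at 4 and neither at 5. In distal chromosome 10 they had H3K9me3 alone at 0 of 10, H3K27ac alone at 6, both at 1 and neither at 3. Put as shares, WT H3K9me3 lay at 54.5% of the 22 (exact interval 32.2% to 75.6%) and at 12.5% of the 3039 H3K9me3 peaks that met no H3K27ac. For H3K27ac the choice of sites fixes that comparison, so it was set against other H3K27ac peaks instead. WT H3K27ac lay at 9 of the 20 Kap1 KO H3K27ac peaks with H3K9me3, or 45.0% (23.1% to 68.5%), and at 77.5% of the 34927 without it. In distal chromosome 10 WT H3K9me3 lay at 1 of the 10 H3K9me3 peaks (interval 0.253% to 44.5%) and at 4.70% of the 1170 others, and WT H3K27ac at 5 of 7 H3K27ac peaks (29.0% to 96.3%) and at 80.5% of the 364 others. Several H3K9me3 peaks share an H3K27ac peak, so their intervals are too narrow. In the other direction, 193 WT H3K9me3 peaks outside distal chromosome 10 met H3K27ac in WT. Kap1 KO H3K9me3 lay at 8 of them, or 4.15% (1.81% to 8.00%). It lay at 2.67% of the 13816 other WT peaks, a share within that interval. Kap1 KO H3K27ac lay at 142, or 73.6%, against 3.82% of the others. Both Kap1 KO marks lay at 5, or 2.59%, against 0.0579%. The contrasts that involve H3K27ac are partly set by the choice of peaks.

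H3K9me3 in distal chromosome 10 lay in blocks between blocks of H3K27ac. Peaks numbered 59.0 per Mb there and between 0.275 and 3.71 per Mb on the autosomes outside it. The first 4 Mb of the interval and its last 2 held no H3K9me3 peak and 99 H3K27ac peaks. H3K9me3 covered over 30% of bases in 4 of the 1 Mb steps, in which H3K27ac covered between 0.342% and 9.10%, and H3K27ac covered over 20% in 2, in which H3K9me3 covered 4.63% and 9.26%. The fullest stretch without H3K27ac held 314 H3K9me3 peaks in 1528 kb. WT cells had 264 H3K9me3 peaks in the interval, fewer than the 1180 of Kap1 KO, whereas outside it they had 14009 against 3061. Copy number of this interval was not measured by the lists, and its part was not tested.

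**Figure D5:**
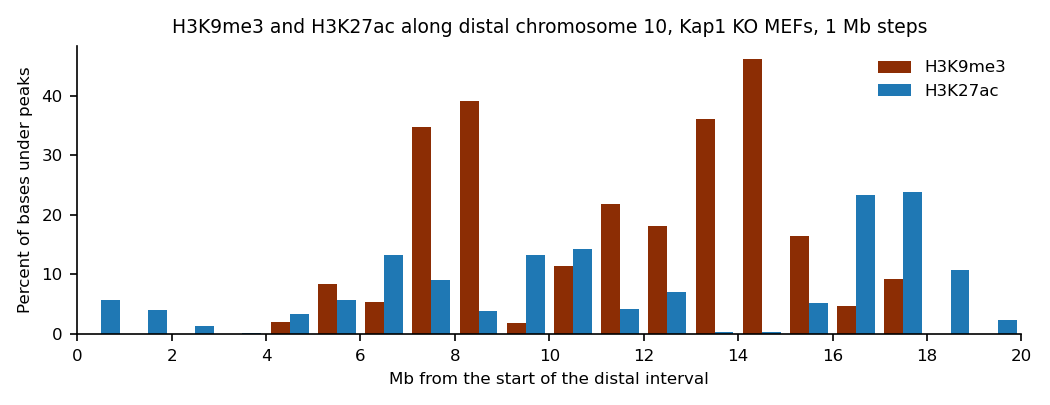
Percent of bases under H3K9me3 (brown) and H3K27ac (blue) peaks of Kap1 KO MEFs (y axis) in 1 Mb steps along distal chromosome 10, by distance in Mb from the start of the interval (x axis). H3K9me3 reaches 46.1% where H3K27ac covers 0.389%, and H3K27ac reaches 23.8% where H3K9me3 covers 9.26%.

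Growth-related genes of distal chromosome 10 had H3K27ac at their starts. All 10 of the list, among them Mdm2 (the inhibitor of p53), Cdk4 and Hmga2, had H3K27ac within 1 kb of a start, against 53.9% of protein-coding genes and 39.6% of all genes. None had H3K9me3 there, as was true of nearly all genes, of which 0.739% had it. The nearest H3K9me3 peak lay between 14.6 kb (Yeats4) and 170.4 kb (Rap1b) away, and for Mdm2 at 47.4 kb and Cdk4 at 168 kb. In WT cells all 10 genes had H3K27ac at a start as well.

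At gene starts in general, H3K9me3 lay within 1 kb of 256 of 34653 genes (0.739%) and both marks within 1 kb of the same start in 19 (0.0548%). Of the 256 genes, 27 had H3K27ac at a start, or 10.5%, against 39.6% of all. Among protein-coding genes it was 20 of 157, or 12.7%, against 53.9%. The 19 with both include Cwc25 (a splicing factor), Hmox2 (a heme oxygenase) and Uros (an enzyme of heme synthesis), at which the peaks did not touch. At Hmox2 the gap was 43 bp and at Uros 399 bp. In all, 20 H3K9me3 peaks had a gap of at most 1 kb without contact, 17 of them outside distal chromosome 10. The smallest gap was 28 bp, at Slc16a7, and the smallest shared interval 175 bp, at Clcn4-2, so few peaks lay near the limit of 1 bp.

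Lists of genes with a known tie to KAP1, to growth or to fibroblasts gave no meeting site, which is the background level for lists this short, since 0.0548% of all genes had both marks at a start. The shares over all genes were 39.6% for H3K27ac at a start and 0.739% for H3K9me3, and over protein-coding genes 53.9% and 0.733%. The median distance from any gene to H3K9me3 was 827 kb. All 21 genes of the heterochromatin machinery, such as Setdb1, Cbx5 and Trim28 itself, had H3K27ac at a start, and their nearest H3K9me3 was 113 kb or more away, with a median of 496 kb. All 12 p53 and cell cycle genes had H3K27ac at a start, and the nearest H3K9me3 was 17.2 kb from Cdkn2a, the gene of p16 and p19ARF. The 16 fibroblast genes stood at least 139 kb from H3K9me3, with a median of 1006 kb. These lists had 0 genes with H3K9me3 at a start and 0 with a shared interval in the body, which 20 of all 34653 genes had.

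Imprinted genes are known for methylated control regions that carry H3K9me3, and many germline genes for methylated promoters. Of 23 imprinted genes found, 14 had H3K27ac at a start (60.9%) and 1, Igf2 (a growth factor), had H3K9me3, and Igf2 had no H3K27ac within 123 kb. Of 16 germline genes 1, Brdt, had H3K27ac (6.25%) and 1, Dazl, had H3K9me3 at a start, with H3K27ac 210 kb away, and WT cells also had H3K9me3 at Dazl. Of 362 genes named Zfp with a number, 281 had H3K27ac at a start, or 77.6% against 53.9% of all protein-coding genes, and 3 had H3K9me3 (Zfp423, Zfp488 and Zfp612), or 0.829%, near the 0.739% of all genes. At Zfp423, a developmental zinc finger gene, H3K9me3 lay on a start and the nearest H3K27ac was 94.6 kb away, whereas WT cells had H3K27ac on a start and H3K9me3 573 bp from one. No gene of these 3 lists had both marks at 1 start. Over the 554 autosomal KZFP genes and related units with coordinates used here lay 0 of the 32 meeting peaks and 1 of the 3039 H3K9me3 peaks without H3K27ac outside distal chromosome 10, too few to compare.

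The 5 H3K9me3 peaks with the highest scores among those without H3K27ac, outside distal chromosome 10, were shared with WT. They had scores from 1235.67 to 2340.87, above the 688.21 of the strongest meeting peak. They lay near Vmn1r238, a vomeronasal receptor gene, at the starts of Muc19 (a mucin) and Dux (a double homeobox factor), and near Tmem125 and 9230019H11Rik. Their gaps to H3K27ac were 25.7 kb at Dux, 31.2 kb at Vmn1r238, 71.3 kb at Tmem125, 73.2 kb at 9230019H11Rik and 202 kb at Muc19, so that 4 of the 5 lay nearer to H3K27ac than the median H3K9me3 peak. All 5 had H3K9me3 in WT, with scores from 570.1 to 1891. The tandem repeat measure passed 60% at Vmn1r238 (77.3%), Tmem125 (79.7%) and 9230019H11Rik (81.8%). It was 43.2% at Muc19 and 31.1% at Dux. Tandem repeats were thus found under strong peaks without H3K27ac as well. The median score was 69.03 for the 22 meeting peaks and 60.34 for the 3039 others, and the median width 490.5 and 395 bp.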

How the data were processed

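H3K9me3 and H3K27ac ChIP-seq of Kap1 KO and WT MEFs were analysed, 1 library per mark and genotype. Per the labels and the study's methods, the authors aligned reads to mm9 by Bowtie2 2.2.1 (sensitive-local) and took peaks from MACS 1.4, with total input as control, and the submitters' notes also name CASAVA 1.82, HISAT2 and bedtools. They deposited peak positions with a score on a −10 log10 p scale and no counts. The methods name a score threshold of 80, but the lowest deposited Kap1 KO scores were 50.03 and 50.01, and all peaks were used. SETDB1 peaks of Hepa 1.6 cells were not used here.

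Overlaps of 1 bp and gaps were computed with numpy 2.4.6 and numba 0.67.0, and the overlap count was checked against bedtools 2.31.1. H3K9me3 peaks were shuffled 10000 times within their chromosome, chromosome 10 in its 2 parts, after the study's own approach. Two-sided permutation p-values are 2 times the smaller tail, and the procedure was tested on made-up lists. Shares have 95% exact binomial intervals (scipy 1.17.1), which cover counting error only. Genes are from GENCODE M1 on the same build (NCBIM37). The gene of a site is the one with a start within 1 kb, else the one that holds it, else that with the nearest start.

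Sites described were, outside distal chromosome 10, the 10 with the highest H3K9me3 score, the 5 longest overlaps and the 5 highest H3K27ac scores below the ceiling, within it the 5 highest H3K9me3 scores and the 5 longest overlaps, then the 5 strongest H3K9me3 peaks away from H3K27ac and listed genes with both marks. The others among the 32 sites were added after their values were seen. Members and gene lists were chosen with earlier results of these data known. Alternatives changed the score limit, the overlap rule, the kind of shuffle and the treatment of distal chromosome 10.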

Additional observations from a re-analysis of the deposited data

Results flagged for a closer look

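Outside distal chromosome 10, the side of the shuffles on which H3K9me3 lay differed between the genotypes. The median gap to H3K27ac was there 3.29-fold its shuffled value in Kap1 KO and 0.558-fold in WT. In distal chromosome 10 it was 2.51-fold in Kap1 KO. The WT ratio in distal chromosome 10, 0.867-fold, could not be told from its shuffles (permutation p = 0.287), so no side can be given for it. With 1 library per genotype the difference between genotypes was not tested. The Kap1 KO list held 3061 H3K9me3 peaks outside the interval and the WT list 14009, with median scores of 65.61 and 79.90 over all chromosomes, and the part of these differences was not tested.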

How the results depend on the processing

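The scarcity of overlaps and the longer gaps kept their direction and stayed past the threshold of 0.05 under every alternative run. The ratio of observed to shuffled overlaps outside distal chromosome 10 ran from 0.0776, with the highest-scoring 50% of peaks in each list (3 peaks against 38.6), to 0.255 with scores of at least 80 (9 against 35.2). In distal chromosome 10 it ran from 0, with the highest-scoring 50% (0 peaks against 70.2), to 0.0796 with shuffles within 5 Mb bins. Shared bases ran from 0.166 to 0.362. Ratios of the median gap from H3K9me3 ran from 2.44 to 6.67 outside the interval and from 2.31 to 4.20 inside it, the highest in each when H3K27ac was shuffled instead. The gap from H3K27ac was the most dependent on the setting, from 1.10 when H3K27ac was shuffled to 3.20 with distal chromosome 10 included. The depth of the libraries is unknown, so a place with 1 mark in a list may hold less of the other than the caller could detect. No paired analysis was possible because each mark and genotype had 1 library.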
